A study of Homo sapiens with 9 samples.

Results

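Native human HDL was set against PBS across the transcriptome of Ramos, a line of human Burkitt lymphoma cells with a germinal center B cell phenotype. The comparison holds 6 of the 9 arrays of the series, chosen by their treatment labels: 3 biological replicates with human HDL at 40 nM and 3 with PBS, all harvested after 48 h. The other 3 arrays are Ramos cells given HDL NPs at 40 nM, synthetic particles with a gold core that carry apolipoprotein A-I and phospholipids but little cholesterol. The study used human HDL, equimolar to the HDL NPs, and PBS as its controls. All groups are 1 cell line grown in medium with fetal bovine serum, so serum lipoproteins were present with PBS as well, and 1 dose and 1 time were measured. RNA was read on Illumina HT-12 arrays with 47323 probes. A gene counted as measured when a probe that names it was above background, at a detection p under 0.05, on at least 3 of the 6 arrays. This left 9649 genes, each read from its brightest probe as a log2 normalized intensity.

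HDL particles carry cholesterol, phospholipids and sphingosine 1-phosphate in plasma. Their receptor SCARB1 lets cholesterol esters and free cholesterol move between particle and membrane, and ABCA1 and ABCG1 export cholesterol to lipid-poor and mature particles. A cell reads its sterol content through a pair of opposed systems. When membrane sterol is low, SCAP carries the SREBP factors to be cleaved and the genes of cholesterol synthesis and uptake are transcribed. When sterol is high, INSIG1 and INSIG2 hold SCAP back, while oxysterols activate the LXR receptors and with them ABCA1, ABCG1 and MYLIP, which sends lipoprotein receptors to degradation. Sterol supply also touches ferroptosis, a death by oxidized membrane lipids that the selenoenzyme GPX4 prevents.

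Sequences are shown for genes at both ends of the comparison. They give the longest run a family member shares with another, and the small RNA a named gene encodes. NBPF10 and NBPF9, the lowest with human HDL, belong to a primate gene family of related copies on chromosome 1. Their promoter windows run from 250 bases before to 50 after the start site, on the minus strand of GRCh38.p14 (RefSeq), at chr1:146144755-146145054 and chr1:149103502-149103801. Capitals mark the longest run shared without a mismatch with another measured member, 152 bases with NBPF14 for NBPF10 and 204 bases with NBPF15 for NBPF9.
NBPF10: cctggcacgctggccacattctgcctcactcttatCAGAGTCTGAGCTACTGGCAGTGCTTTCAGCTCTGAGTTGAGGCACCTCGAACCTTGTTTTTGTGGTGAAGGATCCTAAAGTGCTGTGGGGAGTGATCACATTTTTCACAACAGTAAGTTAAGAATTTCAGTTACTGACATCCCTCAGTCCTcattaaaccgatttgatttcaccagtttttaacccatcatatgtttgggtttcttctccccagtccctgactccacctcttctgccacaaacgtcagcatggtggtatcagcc
NBPF9: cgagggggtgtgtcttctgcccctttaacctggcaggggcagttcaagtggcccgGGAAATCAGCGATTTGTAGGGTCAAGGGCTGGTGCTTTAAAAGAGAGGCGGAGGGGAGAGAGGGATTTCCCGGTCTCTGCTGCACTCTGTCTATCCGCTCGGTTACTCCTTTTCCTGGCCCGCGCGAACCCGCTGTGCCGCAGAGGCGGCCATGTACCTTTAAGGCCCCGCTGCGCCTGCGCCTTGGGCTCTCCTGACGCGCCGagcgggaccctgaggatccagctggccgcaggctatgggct
All 7 measured NBPF members matched a RefSeq window. Each window shows only the longest run shared with 1 other member, not how alike the family is at its starts. The sequences and positions of the array probes were not used here.

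MIR1282, a miRNA gene, was among the 10 highest with human HDL and was above background on no PBS array. Its mature product lies at chr15:43793732-43793751 on the minus strand of GRCh38.p14 (RefSeq), and capitals mark the seed, bases 2 to 8.
hsa-miR-1282: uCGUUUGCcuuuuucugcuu
The array probe annotated to this gene does not measure this 20-base RNA itself.

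The 6 arrays did not separate by treatment. Mean intensity was 237 to 246 on the human HDL arrays and 229 to 278 on the PBS arrays. Over the 9649 genes, 2 human HDL arrays differed by a root mean square of 0.218 to 0.221 log2 units and 2 PBS arrays by 0.227 to 0.237, while a human HDL and a PBS array differed by 0.200 to 0.236. The closest of all pairs was human HDL replicate 1 and PBS replicate 1. Of 12 B cell and germinal center markers on the array, 10 were above background on all 6 arrays, among them CD79A, CD79B, TCL1A, MME and BCL6, while PAX5 and BLNK were not. None of 8 T cell markers was above background on all 6. CD3D, CD3E and CD3G were on none, and LCK was on 2 human HDL and 3 PBS arrays. Of 5 plasma cell markers, 4 were above background on all 6 arrays (SDC1, XBP1, IRF4 and TNFRSF17), and of 8 myeloid markers 1 was, CD68. The summed level of the B cell markers, on the linear scale, was 17735 to 17821 with human HDL and 17116 to 18302 with PBS.

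No gene passed an adjusted p under 0.05 between human HDL and PBS (limma, Benjamini-Hochberg over 9649 genes), which is 0% of those tested, and the smallest adjusted p was 0.973. By Student's test on the same values the count was also 0. At an unadjusted p under 0.05, 466 genes (4.83%) differed, 226 of them higher with human HDL (2.34%) and 240 lower (2.49%), where 482 would be 5% of the genes tested. With median scaling in place of quantile normalization these counts were 271 higher and 172 lower, so their balance rests on the normalization. The 3 human HDL arrays lay beyond the 3 PBS arrays for 884 genes (9.16%), above them for 481 (4.98%) and below them for 403 (4.18%). By the study's rule, a fold over 1.5 with a p under 0.05, taken here as unadjusted, 0 genes (0%) were higher and 3 genes (0.0311%) were lower: NBPF10, NBPF9 and POLR1B. Without human HDL replicate 1 the lower count was 7 and without PBS replicate 2 it was 6, and leaving out single arrays gave 1 to 5 higher genes, the 5 without PBS replicate 3. In bulk RNA, fewer cells that express a gene and less RNA per cell cannot be told apart.

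The intervals show how large a change in normalized intensity these arrays leave room for. The 95% confidence interval of the fold change lay wholly inside 1.5-fold in both directions for 9255 genes (95.9%). It lay inside 1.25-fold for 4672 genes (48.4%) and excluded a 2-fold change of intensity in either direction for 9642 genes. Each intensity includes an added offset, so these folds understate changes in RNA, most of all for dim genes. With an offset of 50 instead, 99.94% of intervals lay inside 1.5-fold, and without background correction 99.97% did. A 2-fold change in RNA is therefore not excluded for dim genes. The median size of the log2 fold change was 0.08 and the median standard error 0.11. The fitted difference was over 0.5 log2 units for 8 genes, each lower with human HDL, and for MEAK7 among them only a smaller bound holds, since it was above background on no human HDL array. Besides genes described below, these were TENT4B, a noncanonical poly(A) polymerase, and CDK11A, a cyclin-dependent kinase with a near-identical copy, both named here after their values were seen. Precision and the share of small p-values both varied with the level of the gene. In the dimmest 1930 genes, 10.3% had an unadjusted p under 0.05 and 89.2% of intervals lay inside 1.5-fold. In the brightest 1930 genes these shares were 0.984% and 99.6%, while the median standard error was 0.13 in the dimmest and 0.09 in the brightest. The fit drew the spread of each gene toward 1 value common to all levels. Its p-values can thus be too small for dim genes and too large for bright ones. The groups did not overlap for 206 of the dimmest and 154 of the brightest genes.

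**Figure D1:**
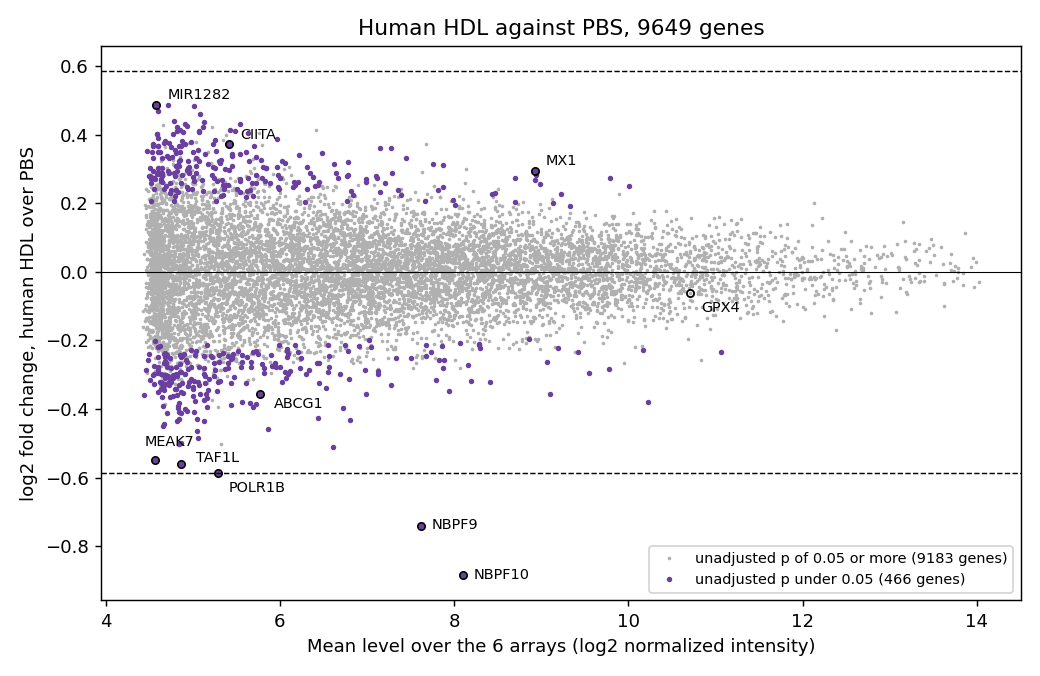
Each point is a gene, with its mean level over the 6 arrays (log2 normalized intensity) on the horizontal axis and the log2 fold change of human HDL over PBS on the vertical axis; dashed lines mark 1.5-fold. Of 9649 genes, 466 had an unadjusted p under 0.05 (purple), 3 lay below the lower line and 0 above the upper one, and the scatter narrows toward bright genes.

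NBPF10, whose family encodes proteins built of repeated domains of little known function, had the largest difference. Its level was 8.08, 7.43 and 7.45 on the human HDL arrays, against 8.62, 8.18 and 8.82 on the PBS arrays. The groups did not overlap, and the log2 fold change was −0.88 (standard error 0.20, 95% interval −1.34 to −0.43, adjusted p = 0.973, limma). Its value was between −0.74 and −1.10 when any single array was left out. A dimmer NBPF10 probe gave −0.18 (95% interval −0.50 to 0.14), and the mean of both probes gave −0.53.

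NBPF9 was at 7.95, 6.75 and 7.06 with human HDL and at 7.92, 7.75 and 8.31 with PBS. Human HDL replicate 1 lay inside the PBS range, and replicates 2 and 3 lay below it. The log2 fold change was −0.74 (standard error 0.27, 95% interval −1.34 to −0.14), −0.49 with human HDL replicate 2 left out and −1.09 with replicate 1 left out, and the exact two-sided permutation p was 0.3, where 0.1 is the smallest that 3 arrays against 3 can give. Of the other 5 measured members of the family, 4 were lower and 1 was higher with human HDL, between −0.19 for NBPF15 and 0.10 for NBPF3, and none had an unadjusted p under 0.05. NBPF15, singled out after its values were seen, was at 4.45, 4.48 and 4.50 with human HDL and at 4.71, 4.67 and 4.62 with PBS, near the background of the arrays. The signal of this family cannot be assigned with certainty to 1 copy, since a probe may bind RNA of several.

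POLR1B encodes the second largest subunit of RNA polymerase I, which transcribes ribosomal RNA. It was at 5.30, 4.97 and 4.72 with human HDL and at 5.58, 5.51 and 5.65 with PBS, and the log2 fold change was −0.59 (SE 0.14, adjusted p = 0.973, limma). The human HDL arrays spread over a wider range than the PBS arrays but did not reach them. A dimmer probe of the gene gave −0.13 (95% interval −0.44 to 0.17), and without background correction the fold change was −0.20. Among 16 measured genes of RNA polymerase I transcription, POLR1B alone was lower at an unadjusted p under 0.05 and UBTF, the upstream binding factor of ribosomal DNA, alone was higher. Over all genes 2.49% were lower and 2.34% higher at that threshold. UBTF differed by 0.26 (95% interval 0.06 to 0.46) at its brightest probe and by −0.18 and −0.05 at its 2 dimmer ones. The median of the list was 0.01, beside 0.01 over all genes.

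The other 8 of the 10 lowest genes without overlap had levels from 4.24 to 6.21. MEAK7, whose product activates mTOR at the lysosome, had the smallest unadjusted p of all genes measured. It was at 4.34, 4.24 and 4.30 on the human HDL arrays and not above background on any of them, against 4.95, 4.79 and 4.79 with PBS, where all 3 were above it. Set against the background level the difference was at least 1.21-fold lower with human HDL, with an adjusted p of 0.973 in the limma fit. TAF1L, a retrocopy of the TFIID subunit gene TAF1, was at 4.78, 4.48 and 4.51 with human HDL and at 5.08, 5.02 and 5.34 with PBS, a log2 fold change of −0.56, and its signal may include RNA of TAF1. MDN1, the giant ATPase of large ribosomal subunit assembly, was at 4.73, 4.43 and 4.63 with human HDL and at 4.99, 5.42 and 4.88 with PBS. The others were IRX5, a homeobox factor, SNX12, a sorting nexin, ALMS1, a centrosome protein, TGFBRAP1, a subunit of an endosomal tethering complex, and PLXNA3, a semaphorin receptor, with log2 fold changes of −0.50 to −0.45.

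Among the 10 highest genes without overlap, none reached 1.5-fold. MIR1282, shown above, was at 5.01, 4.86 and 4.61 with human HDL and at 4.38, 4.29 and 4.34 with PBS, where none of the 3 arrays was above background. The difference was at least 1.21-fold higher with human HDL, with an adjusted p of 0.973 in the limma fit. AGO3, an Argonaute protein that holds miRNAs, was at 5.30, 5.14 and 5.34 with human HDL and at 4.76, 4.90 and 4.68 with PBS, a log2 fold change of 0.48 (95% interval 0.26 to 0.71). Its other kept probe gave −0.13 (95% interval −0.38 to 0.13), and without human HDL replicate 3 that probe was the brighter one and the fold change was −0.06.

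C1orf210 was at 4.85, 5.05 and 4.99 with human HDL and at 4.34, 4.61 and 4.48 with PBS, where it was above background on 1 array. DGAT2, which catalyzes the last step of triglyceride synthesis, was at 5.04, 4.89 and 5.18 with human HDL and at 4.59, 4.43 and 4.81 with PBS, a log2 fold change of 0.42 (95% interval 0.15 to 0.69). The remaining 6 differed by 0.42 to 0.47: FBXO10, an F-box protein of a ubiquitin ligase, TBC1D10A, a Rab GTPase-activating protein, TPM3P9, a pseudogene of TPM3 that shares its sequence in large part, KLHL17, an actin-binding kelch protein, and TDP2 and TONSL, both in DNA repair. Of the 21 genes at either end, 3 had another kept probe, and 0 of those 3 probes had an unadjusted p under 0.05.

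**Figure D2:**
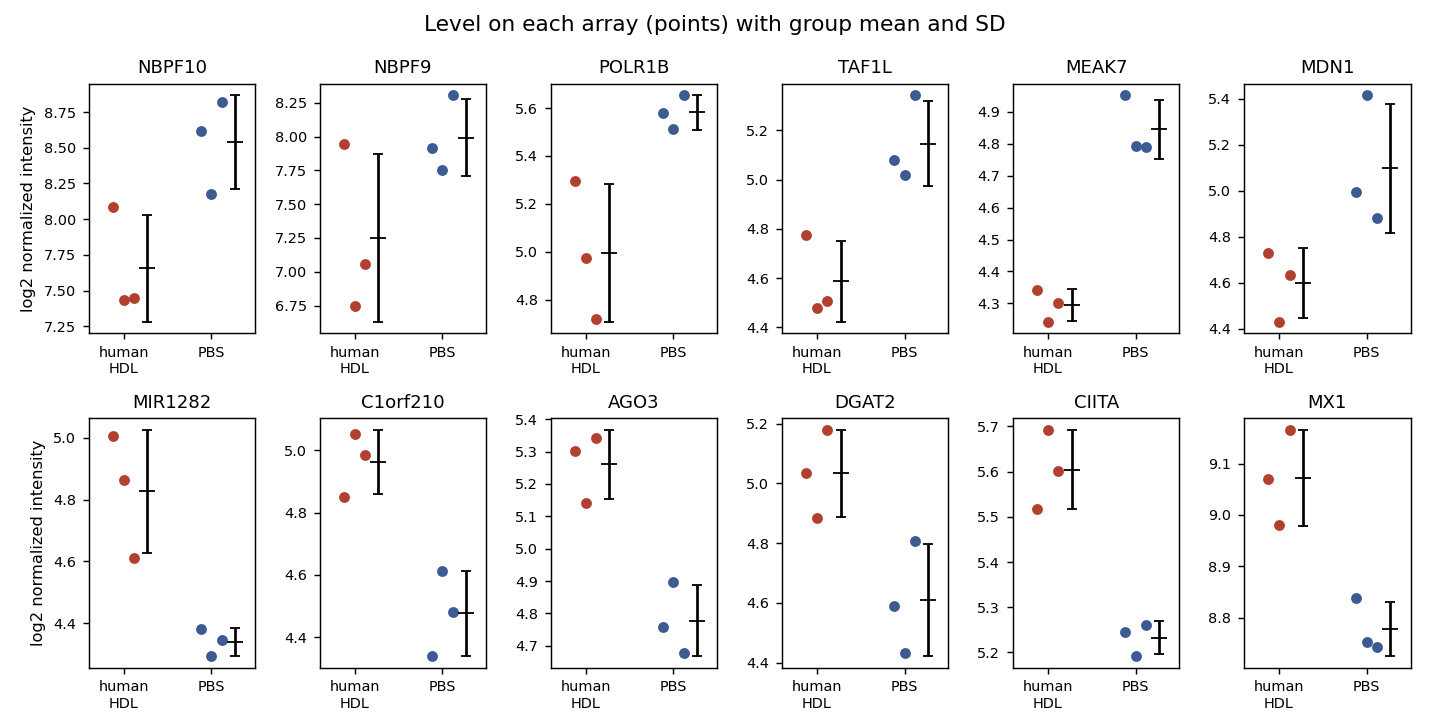
Level of 12 genes on each of the 3 human HDL arrays and the 3 PBS arrays (log2 normalized intensity, points), with the mean and SD of each group as the black cross and bar; vertical axes differ between panels and do not start at 0. NBPF9 alone among them overlaps between the groups, with human HDL replicate 1 at 7.95 inside the PBS range.

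No gene of sterol synthesis, sensing or uptake had an unadjusted p under 0.05 between human HDL and PBS. Over all genes 4.83% did, so in lists this short a count of 0 says little. The cholesterol synthesis list holds 21 genes, of which 18 were measured, 12 with a positive and 6 with a negative fold change. Over all genes 51.8% were positive. The median log2 fold change was 0.01 and the range −0.22 to 0.22. HMGCS1, which makes HMG-CoA at the head of the pathway, was at 9.53, 9.55 and 9.51 with human HDL and at 9.59, 9.40 and 9.39 with PBS, a difference of 0.07 with a 95% interval of −0.13 to 0.28. SQLE, squalene epoxidase, was at 9.41, 9.30 and 9.39 with human HDL and at 9.46, 9.43 and 9.43 with PBS, lower by a margin of 0.07 with an interval of −0.26 to 0.12. LSS, which closes the sterol rings, differed by 0.00 (−0.22 to 0.22) and DHCR7, the last step of the pathway, by 0.01 (−0.25 to 0.26). For 17 of the 18 genes the interval lay inside 1.5-fold, as it did for 95.9% of all genes. The exception was CYP51A1, the lanosterol demethylase, whose PBS arrays ran from 4.67 to 5.65 and whose interval was −0.28 to 0.72.

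Only 3 of the 18 did not overlap between the groups. HSD17B7, a reductase of the late pathway, was at 7.84, 7.87 and 7.74 with human HDL and at 7.98, 7.96 and 7.91 with PBS (−0.13, 95% interval −0.33 to 0.06). SQLE lay below its PBS arrays as given above, and PMVK, phosphomevalonate kinase, lay above them by 0.15 (95% interval −0.05 to 0.35). Counts of 2 lower and 1 higher gene are too small to set against the 4.18% and 4.98% of all genes.

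All 14 measured genes of sterol sensing and uptake had intervals inside 1.5-fold, as 95.9% of all genes did. Their median was 0.03 and their range −0.09 to 0.15. INSIG1 was at 9.21, 9.21 and 9.23 with human HDL and at 9.27, 9.33 and 9.26 with PBS (−0.07, interval −0.26 to 0.12). SREBF2, the SREBP of cholesterol genes, differed by 0.15 (−0.08 to 0.39) and SREBF1, that of fatty acid genes, by 0.00 (−0.28 to 0.28). SCAP differed by 0.08, the late endosomal cholesterol exporter NPC1 by −0.09, its partner NPC2 by 0.04 and SOAT1, which esterifies cholesterol for storage, by −0.08. Among 8 measured genes of fatty acid synthesis the median was −0.06 and 0 had an unadjusted p under 0.05, against 4.83% of all genes.

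**Figure D3:**
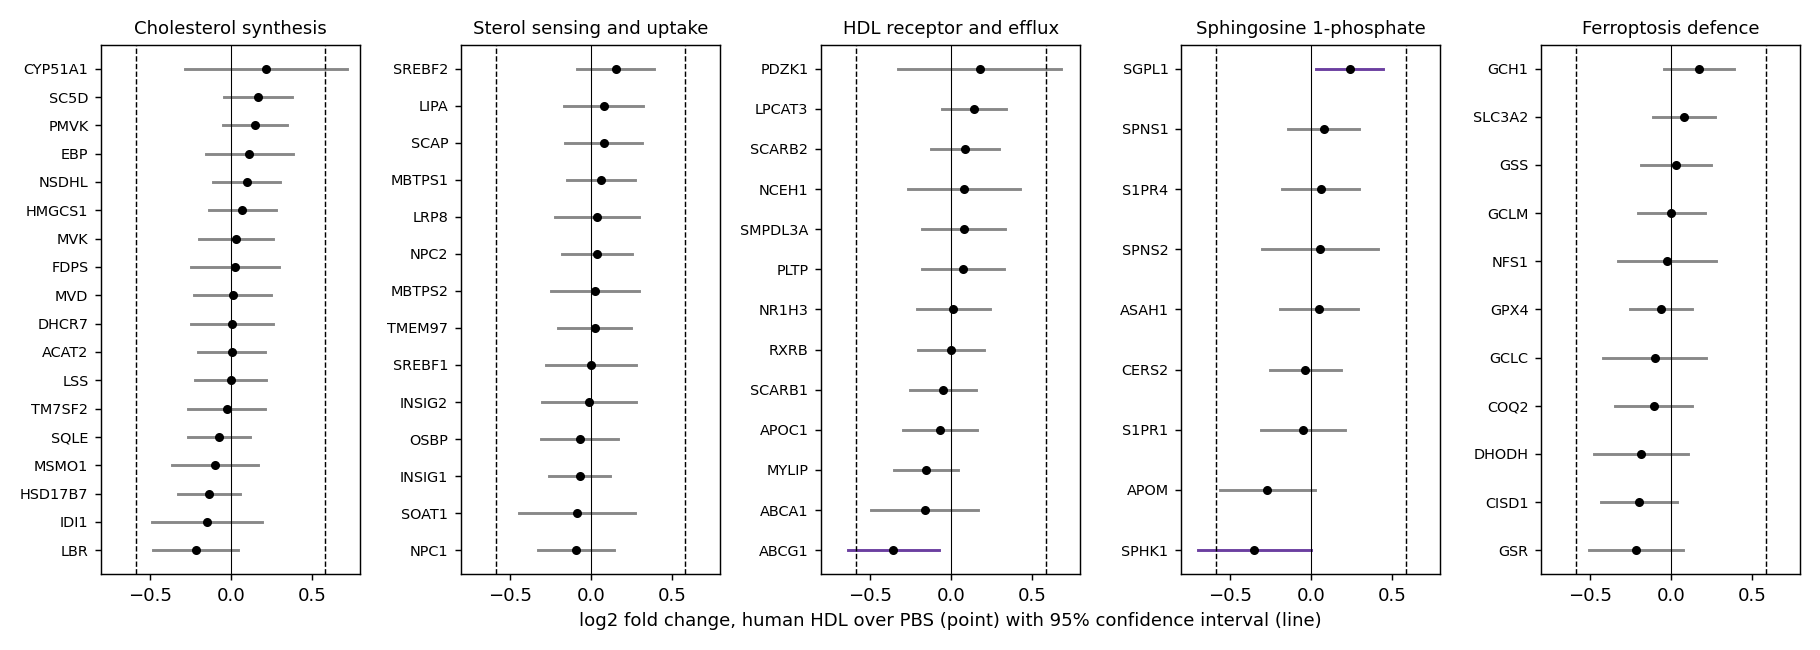
Log2 fold change of human HDL over PBS (points) with its 95% confidence interval (lines) for every measured gene of 5 lists; dashed lines mark 1.5-fold and purple marks an unadjusted p under 0.05. ABCG1, SPHK1 and SGPL1 are the 3 purple genes, and intervals that cross a dashed line are those of CYP51A1, ABCG1, PDZK1 and SPHK1.

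On the side of the HDL receptor and cholesterol export, SCARB1 itself was at 8.29, 8.26 and 8.14 with human HDL and at 8.37, 8.21 and 8.25 with PBS, a difference of −0.05 (interval −0.25 to 0.16). ABCG1 was the 1 gene of 13 measured with an unadjusted p under 0.05, a count too small to set against the 4.83% of all genes. It was at 5.71, 5.57 and 5.49 with human HDL and at 6.13, 5.69 and 6.02 with PBS, so human HDL replicate 1 lay above PBS replicate 2 and otherwise the human HDL arrays were lower. The log2 fold change was −0.36 (standard error 0.13, 95% interval −0.64 to −0.07, adjusted p = 0.973, limma). One dimmer probe gave −0.17 (95% interval −0.48 to 0.14). Another was detected on each PBS array but on none with human HDL, so no fold change is given for it.

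None of the other LXR-regulated genes of the list had an unadjusted p under 0.05. ABCA1 differed by −0.16 (95% interval −0.49 to 0.17). MYLIP was at 6.99, 6.91 and 6.97 with human HDL and at 7.19, 7.03 and 7.11 with PBS (−0.16, 95% interval −0.35 to 0.04), without overlap. LPCAT3, which puts polyunsaturated chains on phospholipids, was at 7.03, 7.15 and 7.09 with human HDL and at 6.96, 6.89 and 6.99 with PBS (0.14, 95% interval −0.05 to 0.34), also without overlap. NR1H3, which encodes LXR alpha, differed by 0.01 and the phospholipid transfer protein gene PLTP by 0.07. The median of the list was 0.01.

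HDL is a main carrier of sphingosine 1-phosphate, and 2 enzymes of that lipid had an unadjusted p under 0.05 among 9 measured genes, against 4.83% of all genes, a count too small to read. SGPL1, the lyase that destroys it, was at 4.76, 4.93 and 4.92 with human HDL and at 4.71, 4.60 and 4.59 with PBS (0.24, 95% interval 0.03 to 0.45), without overlap. SPHK1, a kinase that makes it, was at 4.61, 4.48 and 4.98 with human HDL and at 4.81, 5.01 and 5.30 with PBS (−0.35, 95% interval −0.70 to −0.00), with overlap. Both were close to background, and their adjusted p was 0.988 or more. APOM, the apolipoprotein that holds the lipid on HDL, was above background on 1 human HDL and 3 PBS arrays (−0.27, 95% interval −0.56 to 0.02). The receptors S1PR1 and S1PR4 differed by −0.05 and 0.06.

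GPX4, which clears peroxides from membrane lipids, was at 10.69, 10.69 and 10.66 on the human HDL arrays, against 10.71, 10.81 and 10.71 on the PBS arrays. The human HDL arrays lay just below, by −0.06 with a 95% interval of −0.25 to 0.13, and a dimmer probe gave −0.18 (95% interval −0.40 to 0.04). All 11 measured genes of ferroptosis defence had intervals inside 1.5-fold, as 95.9% of all genes did. Their log2 fold changes lay between −0.22 for GSR, glutathione reductase, and 0.17 for GCH1, which starts the synthesis of tetrahydrobiopterin. A dimmer GSR probe gave 0.29 (95% interval 0.07 to 0.51), so the probes of that gene disagree in sign. SLC3A2, a subunit of the cystine transporter, was at 9.79, 9.72 and 9.78 with human HDL and at 9.70, 9.72 and 9.63 with PBS (0.08), and its dimmer probe gave −0.07. Among 14 selenoprotein genes and 9 genes of iron handling, 0 had an unadjusted p under 0.05, with list medians of −0.05 and −0.01. Over all genes 4.83% did, so a count of 0 in lists this short says little.

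Across 38 gene lists, 459 of 586 listed genes were measured. Of these, 21 had an unadjusted p under 0.05, which is 4.58% against 4.83% of all genes, 7 of them higher and 14 lower with human HDL. For 439 of the 459 the interval lay inside 1.5-fold. Among lists with at least 5 measured genes the medians ran from −0.17 for the NBPF family to 0.05 for sphingosine 1-phosphate, and without the NBPF family the lowest was −0.07, for NRF2 targets and redox genes.

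**Figure D4:**
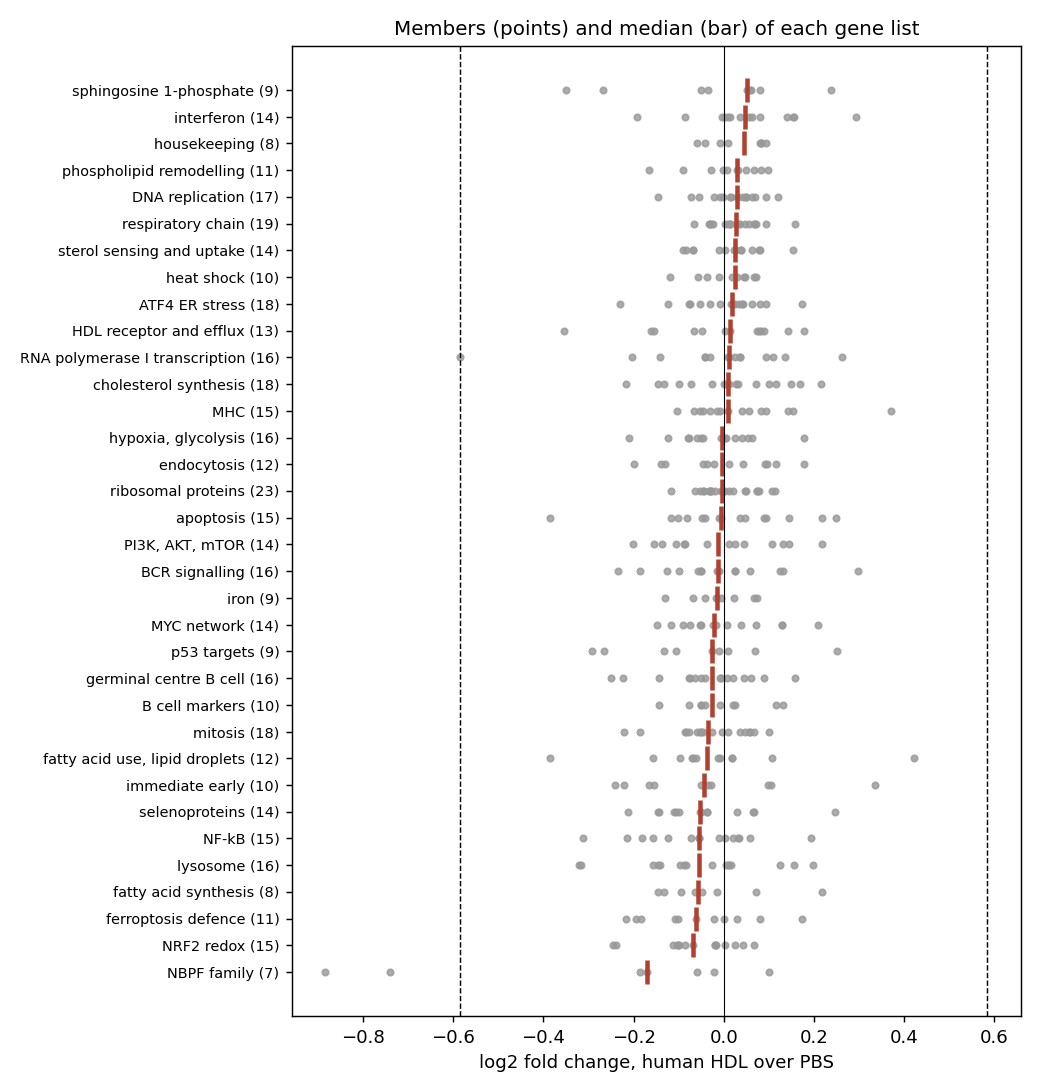
Log2 fold change of human HDL over PBS for the measured genes of each list (gray points; their number in parentheses) and the list median (red bar), for lists with at least 5 measured genes; dashed lines mark 1.5-fold. Medians lie between −0.17 (NBPF family) and 0.05, and NBPF10, NBPF9 and POLR1B are the 3 points at or beyond 1.5-fold.

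Among lists of B cell identity and signaling, single genes had an unadjusted p under 0.05, as 4.83% of all genes did, and none passed the adjusted threshold. CIITA, the coactivator of MHC class II genes, was at 5.52, 5.69 and 5.60 with human HDL and at 5.24, 5.19 and 5.26 with PBS, and its log2 fold change of 0.37 (SE 0.09, adjusted p = 0.973, limma) had an unadjusted p under 0.05 whichever single array was left out. The groups did not overlap. It was the 1 gene of 15 on the MHC list with an unadjusted p under 0.05, and the median of that list was 0.01. CR2, the complement receptor of B cells, was higher by 0.30 (95% interval 0.03 to 0.56), and its other probe gave 0.20. MALT1, the protease of B cell receptor signaling to NF-kB, had a log2 fold change of −0.23 (95% interval −0.45 to −0.02) and BACH2, a repressor of plasma cell differentiation, one of −0.22 (95% interval −0.41 to −0.03). CHUK, a kinase of the NF-kB pathway, differed by −0.21 (95% interval −0.42 to −0.01). CR2 and MALT1 were the 2 such genes of 16 on the B cell receptor list, CHUK the 1 of 15 on the NF-kB list and BACH2 the 1 of 16 on the germinal center list. The medians of these 3 lists were −0.01, −0.05 and −0.03.

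MX1, an interferon-induced GTPase, was the brightest of the named genes with an unadjusted p under 0.05. It was at 9.07, 8.98 and 9.17 with human HDL and at 8.84, 8.75 and 8.74 with PBS, or 0.29 higher with human HDL (SE 0.09, interval 0.09 to 0.50, adjusted p = 0.973, limma). The arrays did not overlap. Of 14 measured interferon genes 11 had a positive and 3 a negative fold change, with a median of 0.05, where 51.8% of all genes were positive. MX1 was the only 1 with an unadjusted p under 0.05, against 4.83% of all genes. Both counts are too small to read as a trend of the list.

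Among genes of cell death, BCL2, which blocks the mitochondrial pathway, was at 5.65, 5.31 and 5.64 with human HDL and at 5.97, 5.90 and 5.88 with PBS (−0.39, 95% interval −0.63 to −0.14). Its other probe gave 0.12 (95% interval −0.15 to 0.38), so the 2 probes of the gene disagree in sign. BCL2 was the 1 gene of 15 on the apoptosis list with an unadjusted p under 0.05. In the p53 list of 9 measured genes DDB2, of DNA repair, was higher (0.25, 95% interval 0.03 to 0.47) and TP53I3 lower (−0.29, 95% interval −0.58 to −0.00), both near background. The lysosomal protease CTSZ differed by −0.32 (95% interval −0.59 to −0.04), and so did CTSL, named here after its values were seen (−0.32, 95% interval −0.64 to −0.00). Of 16 measured lysosomal genes 7 were higher and 9 lower, with a median of −0.05, and 2 had an unadjusted p under 0.05. CAT, catalase, differed by −0.25 (95% interval −0.48 to −0.01) with 0.08 at its other probe, the 1 such gene of 15 on the list of NRF2 targets and redox genes. The counts in these lists are too small to set against the 4.83% of all genes.

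The lists of MYC network, DNA replication, mitosis, ribosomal protein and respiratory chain genes had no gene at an unadjusted p under 0.05. Over all genes 4.83% passed it, and 0.984% of the brightest 1930, so counts of 0 say little here. The medians of these lists lay between −0.04 and 0.03. ALB, the albumin gene and a marker of liver, the source of much plasma HDL, was above background on 2 human HDL and 3 PBS arrays and differed by −0.39 (95% interval −0.72 to −0.07). APOA1, APOA2, APOB and TTR, the other liver markers, were above background on none of the 6 arrays.

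In a fit of all 16433 kept probes, with or without a gene name, 0 passed an adjusted p under 0.05 and 744 had an unadjusted p under 0.05. Among them, 223 of 3789 unnamed probes (5.89%) had an unadjusted p under 0.05, 4 of them by the study's rule, each lower with human HDL. Over the whole array, 56 probes were above background on all 3 human HDL and no PBS array and 71 on all 3 PBS and no human HDL array, against 13020 on all 6. The probes detected in 1 group alone did not exceed a level of 5.40.

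Against HDL NPs, 6 of the 18 measured genes of cholesterol synthesis passed an adjusted p under 0.05, each lower with human HDL. All 9 arrays were fitted together for this test, which sets human HDL against HDL NP arrays. The PBS arrays do not enter the difference itself, but they enter the normalization, the detection filter, the choice of probe and the spread. At an adjusted p under 0.05, 4 of 10307 genes (0.0388%) were higher and 57 (0.553%) lower with human HDL than with HDL NPs. Without HDL NP replicate 1 the counts were 11 higher and 78 lower. The counts rest on single arrays in every group. With 1 human HDL array left out they were 2 higher and 2 or 3 lower. Dropping HDL NP replicate 2 gave 47 higher and 145 lower, and dropping HDL NP replicate 3 gave 2 and 3. Dropping PBS replicate 1 gave 3 higher and 18 lower, and dropping either other PBS array gave 3 and 8. Median scaling gave 2 higher and 8 lower. The 6 cholesterol synthesis genes were HMGCS1 and LSS, which passed in all 9 fits with 1 array left out, DHCR7 in 7 of them, MSMO1 in 6, HSD17B7 in 3 and ACAT2 in 2. The other 12 did not pass, and among them PMVK differed by 0.50, higher with human HDL (adjusted p = 0.128, limma).

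In these 9-array values, HMGCS1 was at 9.55, 9.57 and 9.52 with human HDL and at 10.99, 10.58 and 10.57 with HDL NPs, a difference of −1.16 (standard error 0.13, adjusted p = 0.00381, limma), and −1.05 without HDL NP replicate 1. LSS was at 7.75, 7.71 and 7.71 with human HDL and at 8.78, 8.83 and 8.68 with HDL NPs, a difference of −1.04 (adjusted p = 0.00318). DHCR7, read in this fit from its other probe, which was the brighter one over 9 arrays, was at 7.94, 7.82 and 7.81 with human HDL and at 8.99, 8.92 and 8.70 with HDL NPs, a difference of −1.01 (adjusted p = 0.00764). No human HDL array reached an HDL NP array in these genes. They were picked from those that passed the test on these same arrays, so this gap is no further support. The median of the cholesterol synthesis list relative to PBS was 0.02 with human HDL and 0.63 with HDL NPs, values that share the PBS arrays.

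The 4 genes higher with human HDL than with HDL NPs were ID1, GPX1, PTPN6 and LHPP. ID1, an inhibitor of helix-loop-helix factors, was at 6.48, 6.40 and 6.13 with human HDL and not above background on any HDL NP array, at least 3.48-fold higher with human HDL (fitted adjusted p = 4.09e-06, limma). GPX1, the cytosolic glutathione peroxidase, was at 8.74, 8.82 and 8.79 with human HDL and at 7.13, 7.75 and 7.49 with HDL NPs, a difference of 1.33 (adjusted p = 0.00318). Both passed whichever single array was left out. PTPN6, the phosphatase SHP-1 of immune receptor signaling, and LHPP, a phosphatase, were higher by 0.90 and 0.78. With 1 array left out, PTPN6 passed in 5 and LHPP in 2 of the 9 fits. GPX4 differed by 0.57 (adjusted p = 0.097, limma) and did not pass.

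**Figure D5:**
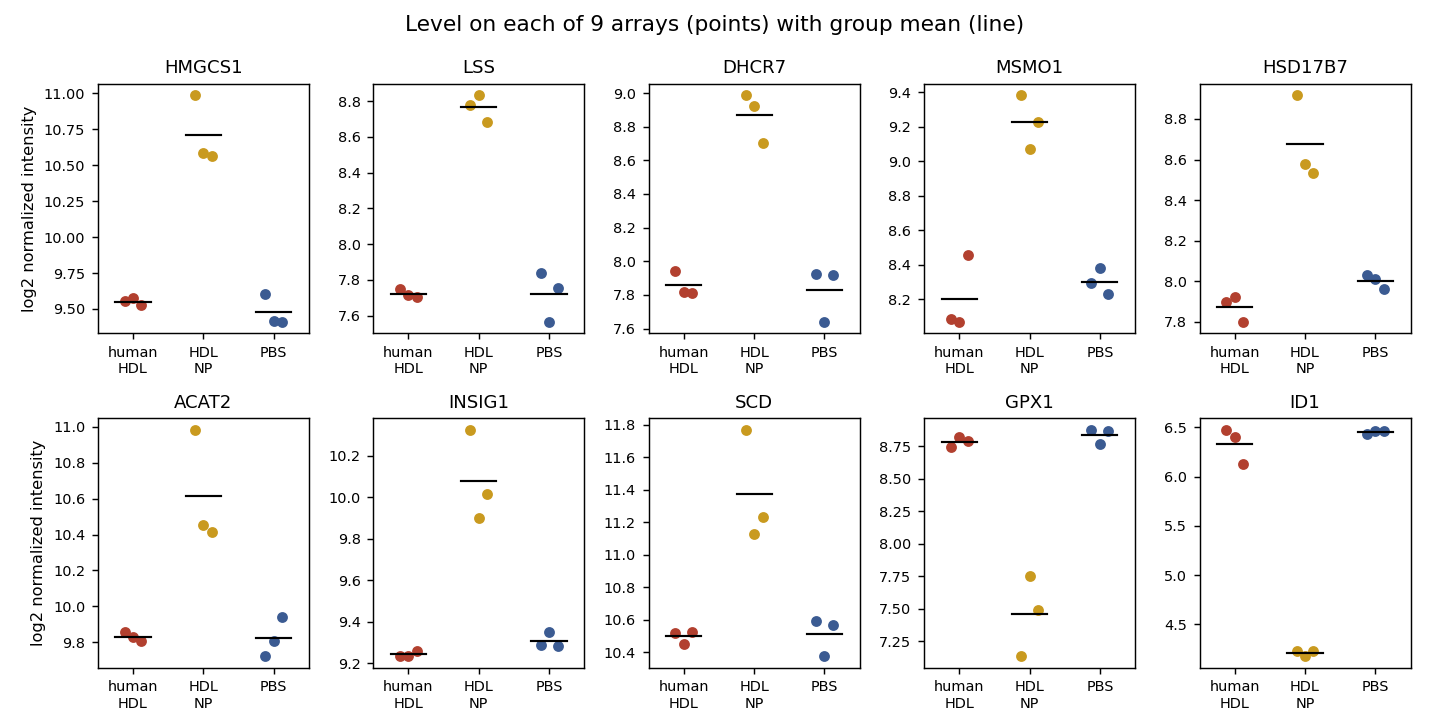
Level of 10 genes on each array of human HDL, HDL NP and PBS (log2 normalized intensity from all 9 arrays, points) with the group mean (line); vertical axes differ between panels and do not start at 0. In HMGCS1, LSS, DHCR7, MSMO1, HSD17B7, ACAT2, INSIG1 and SCD the human HDL points lie below all HDL NP points, and in GPX1 and ID1 above them, while the means of human HDL and PBS lie close, at most −0.13 apart (HSD17B7). All 10 genes were picked from those that passed the test of human HDL against HDL NPs on these arrays, so their separation is no further support.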

How the data were processed

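The authors deposited for each array the intensity of every probe, not normalized, and its detection p-value; the scanner software is not given in the sources used here. A second deposited table of unstated unit, with column medians of 2.97 to 3.44, served only as an alternative. In limma 3.58.1 (R 4.3.3), neqc inferred negative controls from the detection p-values, added an offset of 16, normalized the 6 arrays by quantiles and took log2, and lmFit and eBayes compared the groups with 9.73 degrees of freedom. The methods call the 3 arrays of a group biological replicates, and 3 arrays a group limit the precision. Of 47323 probes, 30113 had 1 gene symbol (array annotation, checked against GRCh38.p14 gene IDs), 16433 were kept and 12644 of these named 9649 genes.

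Human HDL was set against HDL NPs in a fit of all 9 arrays. Named genes are all that pass the study's rule, the 10 highest and 10 lowest with an unadjusted p under 0.05 and no overlap, every measured gene of 5 lists (cholesterol synthesis, sterol sensing and uptake, HDL receptor and efflux, sphingosine 1-phosphate, ferroptosis defence), and the smallest p each way in every other list. A gene above background on no array of a group was given as a bound: the brighter group's mean against, per array, the higher of the lowest level above background and the gene's own. Members and lists were chosen with earlier results of these data known. The steps were tested on simulated data. Some listed genes were not analysed here.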

Additional observations from a re-analysis of the deposited data

How the results depend on the processing

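The count of genes at an adjusted p under 0.05 between human HDL and PBS was 0 under all 19 alternatives. The study's rule gave 1 lower gene without background correction and 1 with the mean of kept probes, and leaving out single arrays gave 1 to 5 higher and 2 to 7 lower. At an unadjusted p under 0.05, 118 genes were higher and 120 lower with all 9 arrays in the fit, and 463 and 454 with no detection filter, where 20046 genes were tested and 19528 intervals lay inside 1.5-fold. Leaving out single arrays gave 166 to 245 higher and 160 to 291 lower. The share of intervals inside 1.5-fold was 81.6% by Student's test and 88.7% with all 9 arrays in the fit. The second deposited table, which may not measure expression, gave 185 higher and 228 lower genes by the study's rule and 414 intervals inside 1.5-fold. With replicate number as a block, which no label ties to a shared day or culture, 257 genes were higher and 260 lower at an unadjusted p under 0.05 and 0 passed the adjusted threshold; deviations of same-numbered arrays correlated at 0.15, −0.03 and 0.04, and of the human HDL arrays only replicate 1 correlated best with its own number, so the numbers were not taken as a pairing.

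Of human HDL against HDL NPs, median scaling gave 2 higher and 8 lower genes, and leaving out single arrays 2 to 47 higher and 2 to 145 lower, the largest counts without HDL NP replicate 2. Among 37 named genes with an unadjusted p under 0.05 against PBS, 36 kept their direction under each alternative that measured them (some dim genes dropped out of some), other than the second table. AGO3 ran between −0.0613 and 0.548 when single arrays were left out, the lowest without human HDL replicate 3, where its other probe was read. In the second table TAF1L turned to 0.28 and PLXNA3 to 0.00362. List medians moved by less than the spread of the human HDL arrays in 589 of 682 recomputations. Signal over background limits the dim genes, whose intervals were the widest.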
